A study of Mus musculus with 6 samples.

Results

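The genes described here encode the proteins of the cytosolic ribosome. They were taken by symbol: names that begin with Rpl or Rps and a digit, together with Rpsa, Rplp0, Rplp1 and Rplp2, leaving out the Rps6k kinases and symbols that contain -ps. The rule found 86 genes of the 32285 features counted, of which 34 carry small-subunit names, 49 large-subunit names and 3 encode the acidic stalk. It also took Rps19bp1, a binding partner of Rps19 that is not itself a ribosomal protein, and the paralogs Rpl22l1, Rpl7l1, Rpl3l, Rpl10l, Rpl39l, Rpl36al, Rps27l and Rps27rt. It left out 5 -ps features, of which Rpl9-ps6 had the most UMIs, 82 over all samples.

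The study measured RNA in droplets loaded with suspensions of hippocampal tissue from mice 6 months old, with 10x Genomics Chromium 3′ v3.1 chemistry, in 6 samples. The 3 groups of 2 samples were wild-type littermates given PBS (WT-PBS), 5×FAD mice given PBS (5×FAD-PBS), and 5×FAD mice given Aβ3FTnAu, a protein-gold nanostructure aimed at amyloid-β plaques (5×FAD-Aβ3FTnAu). 5×FAD mice carry human transgenes with familial Alzheimer mutations under the neuronal Thy1 promoter. Whether the 2 samples within each group are different mice or pools is not stated in the labels, so p-values measure only the spread between these samples, which may be technical.

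Ribosomal protein genes are transcribed in nearly every cell. Their mRNAs are short, lie mostly in the cytoplasm and usually begin with a C followed by a run of pyrimidines, the terminal oligopyrimidine (TOP) motif, through which the mTORC1 kinase pathway sets how strongly they are translated. Subunits are assembled in the nucleolus and exported, and in neurons part of the ribosomes and of these mRNAs lies in dendrites and axons. Mitochondrially encoded transcripts (mt-) also lie outside the nucleus, and their share is given beside the group comparisons. From these counts, less ribosomal protein mRNA in a cell and a smaller part of a cell's cytoplasm caught in the droplet cannot be told apart.

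The start-site sequence is shown for a few members because the TOP motif sits there. RefSeq (GRCm38.p6) gave 78 starts for 66 of the 86 members. The other 20 included Rpl3, Rpl8, Rpl7, Rpl17, Rpl21, Rpl23a, Rpl29, Rpl30, Rpl32, Rpl36, Rplp1, Rps14, Rps20, Rps27a and Rps29. Each line gives 30 bases of the sense strand, from 10 bases before the annotated start, with the longest C/T run that touches the 10 bases on either side of the start in capitals where it is at least 5. Where a member had several starts, the start with the longest run is shown.
Rps6 (chr4:86857348-86857377, minus strand): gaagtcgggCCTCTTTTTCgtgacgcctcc
Rps9 (chr7:3704031-3704060, plus strand): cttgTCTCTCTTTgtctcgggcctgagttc
Rps27 (chr3:90213629-90213658, minus strand): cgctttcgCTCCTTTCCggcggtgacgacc
Rpl28 (chr7:4792955-4792984, plus strand): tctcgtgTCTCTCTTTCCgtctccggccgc
Rpl38 (chr11:114668570-114668599, plus strand): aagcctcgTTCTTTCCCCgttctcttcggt
Rplp2 (chr7:141447641-141447670, plus strand): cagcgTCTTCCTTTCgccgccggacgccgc
Rpl22l1 (chr3:28805498-28805527, plus strand): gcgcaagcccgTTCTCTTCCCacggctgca
Rpl22 (chr4:152324426-152324455, plus strand): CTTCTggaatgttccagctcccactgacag
Rpl41 (chr10:128549149-128549178, minus strand): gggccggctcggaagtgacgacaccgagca
The first 7 have a run of 8 or more C or T, Rpl22 has a run of 5, and the Rpl41 window has none over 3. A run of at least 8 that touched the 10 bases on either side of the start was found at 38.5% of the 78 member starts and at 14.0% of all 32851 starts. For runs of at least 6 the shares were 51.3% and 29.97%, and for at least 10 they were 29.5% and 7.11%. In the 300 bases from 250 before to 50 after the start, CCGGAAG, a core bound by GABP and other ETS factors, stood on either strand at 34.6% of member starts against 8.86% of all. AAGATGG, a YY1 core, stood at 15.4% against 6.34%. A match describes letters and not a bound site, and an annotated start can differ from the one used in these cells.

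After filters on genes, UMIs and mt- share and the removal of likely doublets, 41656 of 50224 barcodes were left. The samples held 29559385 to 61121642 UMIs, with medians of 3957 to 5131 UMIs per barcode. Libraries shared 9 to 45 barcodes per pair. Classes were set by marker UMIs, none of them from a ribosomal protein gene: 25469 excitatory and 1141 inhibitory neuron-like barcodes, 855 microglia-like, 888 astrocyte-like, 3061 oligodendrocyte-like and 1072 precursor-like (oligodendrocyte precursors), with 9135 unassigned. Each class had at least 2 of its own markers and none of another class among its top 10 genes. The same markers set the classes, so this was largely fixed in advance and is no independent check. Endothelial and mural markers gave only 32 barcodes. Mt- transcripts, abundant in whole neurons, were 0.0105% to 0.0880% of the UMIs of excitatory neuron-like barcodes.

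The family held 398804 UMIs, and it was a small share of every sample. Ribosomal protein UMIs were 0.218% and 0.183% of all UMIs in WT-PBS samples 1 and 2, 0.174% and 0.216% in 5×FAD-PBS, and 0.115% and 0.108% in 5×FAD-Aβ3FTnAu. Both treated samples therefore lay below the 4 others, which overlapped. The median barcode held 9, 9, 9, 10, 5 and 6 ribosomal protein UMIs in the same order. Barcodes without any were 0.22% to 0.54% in the 4 PBS samples and 1.75% and 1.59% in the treated samples. Mt- UMIs were 0.0249% and 0.0776% in WT-PBS, 0.0883% and 0.126% in 5×FAD-PBS, and 0.0151% and 0.0127% in the treated samples, so the treated samples were also lowest in mt- share. WT-PBS sample 1 lay near the treated samples in mt- share and was the highest of all in ribosomal protein share.

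The counts were spread over many members. Rpl6, a large-subunit protein, had the most UMIs, 21096 or 5.29% of the family, followed by Rpl5, which binds 5S rRNA, with 2.64%. The 10 genes with the most UMIs held 24.8%. Rpl39l and Rpl10l, the testis-enriched copies of Rpl39 and Rpl10, had 6 and 4 UMIs, and were the only members that passed the low-count filter in no class. The other 84 were tested in at least 1 class and 6 in all 6. Reads of a ribosomal protein gene and its processed copies can be confused in mapping, so Rps27rt, Rpl36al and the other near copies are uncertain. No cell type lacks these mRNAs, so no class could serve as a background for free RNA.

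The treated samples had the lowest summed ribosomal protein level in each of the 6 classes. Levels are in CPM, the UMIs of the 86 members scaled to an equal total of UMIs in every sample and class. In excitatory neuron-like barcodes the summed level was 1982 and 1637 CPM in WT-PBS, 1571 and 1939 in 5×FAD-PBS, and 1080 and 1021 in 5×FAD-Aβ3FTnAu. Both treated samples lay below all 4 others, and the PBS groups overlapped. The treated mean of 1050.2 ± 41.6 (SD, n = 2) was 0.598 of the 5×FAD-PBS mean of 1755 ± 260 (SD, n = 2). Inhibitory neuron-like barcodes gave 2667 and 2357 CPM in WT-PBS, 2436.5 and 2429 in 5×FAD-PBS, and 1304 and 1358 in the treated samples. There too the treated samples stood apart, and the 5×FAD-PBS samples lay between those of WT-PBS.

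The glial classes had the same order for the treated samples. Oligodendrocyte-like barcodes held 3691 and 3417 CPM in WT-PBS, 2508 and 3232 in 5×FAD-PBS, and 2037 and 1941 in the treated samples. Precursor-like barcodes held 3478 and 2546, then 2078 and 2934, then 1656 and 1629.5. Astrocyte-like barcodes held 3425 and 4000, then 2288 and 3036, then 1725 and 1613, the last from 62 and 31 barcodes. In these 3 classes no treated sample reached the lowest 5×FAD-PBS sample. Microglia-like barcodes were the class with the highest levels in each sample, with 3845 and 4334 CPM in WT-PBS, 4777 and 5307 in 5×FAD-PBS, and 3064 and 2789 in the treated samples, the last from 32 and 70 barcodes. They were also the class in which both 5×FAD-PBS samples lay above both WT-PBS samples.

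**Figure D1:**
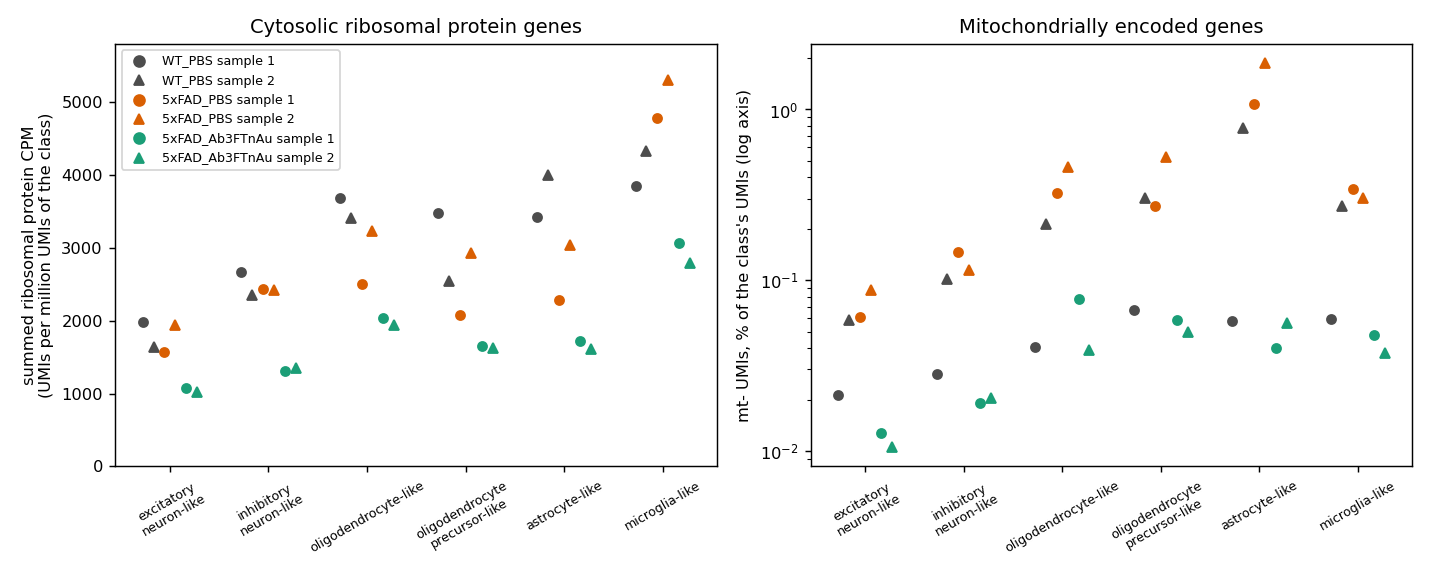
Summed ribosomal protein CPM (left, linear axis) and mt- UMIs as a percent of the class's UMIs (right, log axis) in the 6 classes; each point is 1 sample, grey for WT_PBS, orange for 5xFAD_PBS and green for 5xFAD_Ab3FTnAu, circle for sample 1 and triangle for sample 2. The green points are lowest on the left in every class, from 1021 to 3064 CPM, and on the right WT_PBS sample 1 lies near them.

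As geometric means, treated over 5×FAD-PBS was 0.547-fold in inhibitory neuron-like, 0.581 in microglia-like, 0.602 in excitatory neuron-like, 0.633 in astrocyte-like, 0.665 in precursor-like and 0.698 in oligodendrocyte-like barcodes. Treated over WT-PBS ran from 0.451 in astrocyte-like to 0.716 in microglia-like barcodes. Both treated samples lay below both samples of the other group in 6 of 6 classes in both comparisons. The two-sided exact permutation test gave p = 0.333 for each of these, the smallest that 2 against 2 allows, so no single class could pass 0.05. The comparisons share samples and the classes share libraries, and they are not independent of each other. 5×FAD-PBS over WT-PBS was 0.802 in oligodendrocyte-like, 0.712 in astrocyte-like and 1.23 in microglia-like barcodes with no overlap (exact permutation p = 0.333, the smallest possible), and 0.969, 0.970 and 0.830 with overlap in excitatory, inhibitory and precursor-like barcodes.

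The mt- share of the same barcodes moved with the treatment too. In excitatory neuron-like barcodes it was 0.0212% and 0.0587% in WT-PBS, 0.0613% and 0.0880% in 5×FAD-PBS, and 0.0127% and 0.0105% in the treated samples. The summed mt- level of the treated samples was 0.155 of that in 5×FAD-PBS, against 0.598 for ribosomal proteins. In barcodes with no mt- UMI at all, ribosomal protein CPM of non-mt UMIs was 1977 and 1555 in WT-PBS, 1534 and 1919 in 5×FAD-PBS, and 1042 and 1004 in the treated samples, so the gap between groups was present without any mt- UMI. In barcodes with 0.1% or more mt- UMIs the values were 3049, 2279.6, 2022, 2375, 1822 and 1647 in the same sample order, again with the treated samples lowest. Within each of the 6 samples the level was highest in barcodes with 0.1% or more mt- UMIs and lowest in those with some but under 0.03%. These barcodes also differed in depth, with sample medians of 3302 to 4907 UMIs at 0.1% or more and 6555 to 8286.5 under 0.03%. A barcode with at least 1 mt- UMI can be under 0.03% only if it holds many UMIs, so that bin is deep by definition. Its place in the order cannot be told apart from depth, whose part was not tested. In each of the 6 classes the mt- share of both treated samples was below that of both 5×FAD-PBS samples. The part of cytoplasmic RNA content in the group difference was not tested.

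Marker genes of other classes differed between groups as well. In excitatory neuron-like barcodes the summed level of the 14 astrocyte markers was 297 and 275 CPM in 5×FAD-PBS and 177 and 198 in the treated samples, with both treated samples lower for 10 of 14. The 15 oligodendrocyte markers summed to 293 and 251 CPM in 5×FAD-PBS and 324 and 466 in the treated samples, with both treated samples higher for 13 of 15. None of these markers was at 0 in all samples. In microglia-like barcodes the 12 precursor markers summed to 491 and 467 CPM in 5×FAD-PBS and 226.0 and 226.1 in the treated samples, with both treated samples lower for 7 and higher for 0. The 15 endothelial and mural markers summed to 134 and 106 CPM and to 50.2 and 53.8, and the 10 neuron markers to 1337 and 2481 and to 1030 and 775, with 7 of 10 lower. Of those lists 2, 4 and 0 markers were at 0 in all samples. Their part in the ribosomal protein difference was not tested.

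Excitatory neuron-like barcodes of like depth also had the treated samples lowest. Among excitatory neuron-like barcodes of 1000 to 2000 UMIs, the mean number of ribosomal protein UMIs per barcode was 6.49 and 6.30 in WT-PBS, 6.56 and 6.36 in 5×FAD-PBS, and 3.15 and 2.94 in the treated samples. At 3000 to 5000 UMIs it was 9.35, 8.79, 8.89, 9.80, 5.07 and 5.13, and at 8000 or more it was 22.8, 15.5, 17.7, 17.6, 11.3 and 14.2. From these means, treated over 5×FAD-PBS was 0.471 in the shallowest of the 5 depth ranges, 0.536, 0.546 and 0.569 in the next, and 0.723 in the deepest. The treated samples were below both others each time. The deepest range has no upper limit, and its means exceed its medians. Those medians were 17 and 14 in WT-PBS, 15 and 16 in 5×FAD-PBS, and 9 and 9 in the treated samples. 5×FAD-PBS over WT-PBS stayed between 0.921 and 1.03. In the other classes the treated samples were again below both 5×FAD-PBS samples in each depth range with enough barcodes, except oligodendrocyte-like barcodes of 2000 to 3000 UMIs. There the treated samples had 4.23 and 4.94 ribosomal protein UMIs per barcode and 5×FAD-PBS 4.71 and 6.05, which overlapped. Ribosomal protein UMIs increased less than total UMIs from range to range, so their share was larger in shallow barcodes.

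**Figure D2:**
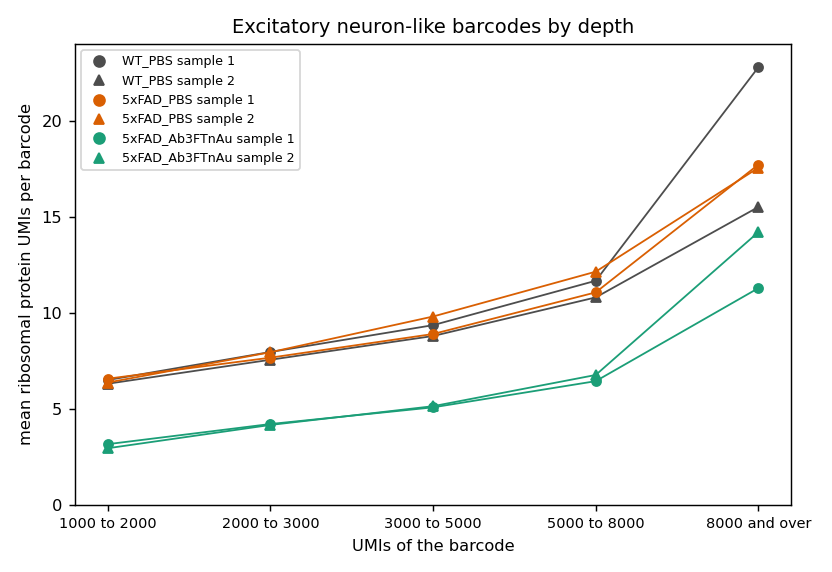
Mean ribosomal protein UMIs per excitatory neuron-like barcode (vertical axis) in 5 ranges of total UMIs (horizontal axis), 1 line per sample, coloured by group with circles for sample 1 and triangles for sample 2. The green lines of the treated samples lie below the 4 others in every range, at 3.15 and 2.94 in the first and 11.3 and 14.2 in the last.

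Gene by gene, the difference between treated and 5×FAD-PBS samples ran through nearly the whole family. In excitatory neuron-like barcodes 83 of the 84 members tested had a log2 fold change below 0, against 51.5% of the 19189 genes tested, and their median was -0.81 against -0.01 for all genes. Both treated samples were below both 5×FAD-PBS samples for 78 of 84 members, against 34.5% of all genes, and 62 had an unadjusted p under 0.05 in that direction, against 11.2%. No member passed the threshold after adjustment over all genes (0% of all genes did), where the smallest adjusted p by edgeR's quasi-likelihood test was 0.0891. DESeq2 on the same counts called 46 members lower. The share of all genes that DESeq2 called is not given here, so the 46 cannot be read as particular to the family. Without 5×FAD-PBS sample 2 the median was -0.66, and without sample 1 it was -0.99.

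Members with small-subunit names, Rps19bp1 included, had a median log2 fold change of -0.80 in excitatory neuron-like barcodes, with 34 of 34 below 0. Rps21 had 28.4 and 22.1 CPM in WT-PBS, 21.5 and 25.9 in 5×FAD-PBS, and 9.98 and 9.19 in the treated samples. It had the largest difference among them, at -1.30 ± 0.17 (SE; edgeR adjusted p = 0.0891), and its treated samples stood far from the rest. Rps6, the substrate of the S6 kinases, had 11.3, 10.4, 10.9, 13.5, 6.17 and 6.03 CPM in the same sample order, a difference of -0.997 ± 0.17 (edgeR adjusted p = 0.0922). Rpsa, also known as the laminin receptor, had 22.7, 15.7, 16.7, 18.3, 11.6 and 10.7 CPM (-0.65 ± 0.19). Rps29, a small zinc-binding protein, had 14.4, 13.2, 13.1, 18.3, 9.03 and 7.46 CPM (-0.93 ± 0.21). The treated samples were lowest for all 4. Rps25, which many viral internal ribosome entry sites need, had 12.1, 10.1, 8.80, 11.9, 7.70 and 7.13 CPM (-0.48 ± 0.21), a narrower gap.

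Rps12, a small-subunit protein, was level across the groups in excitatory neuron-like barcodes. Rps12 had 29.2 and 34.3 CPM in WT-PBS, 32.4 and 37.2 in 5×FAD-PBS, and 33.0 and 35.7 in the treated samples, a difference of -0.01 ± 0.14 (edgeR adjusted p = 0.965). Its treated samples overlapped the others. Rps12 and the level large-subunit genes below were picked after their values were seen.

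Among large-subunit members the median was -0.91, with 46 of 47 below 0. Rpl36 had 19.1 and 13.9 CPM in WT-PBS, 12.9 and 18.9 in 5×FAD-PBS, and 5.51 and 5.18 in the treated samples, the largest difference of any member in this class at -1.57 ± 0.25 (edgeR adjusted p = 0.0922). Rpl38, which is known from the patterning defects of its mouse mutant, had 13.6, 10.96, 12.96, 14.5, 5.59 and 4.82 CPM (-1.40 ± 0.19, edgeR adjusted p = 0.0891). Rpl41, the smallest ribosomal protein, had 41.1, 24.9, 27.0, 32.7, 12.5 and 10.7 CPM (-1.36 ± 0.25). In these 3 genes every treated value was under the lowest PBS value by a wide margin. Rpl10a had 30.1, 15.6, 14.3, 19.3, 11.6 and 9.63 CPM (-0.66 ± 0.32), with WT-PBS sample 1 far above the rest. Rpl6 had 96.5, 107, 101, 110, 70.0 and 64.1 CPM (-0.65 ± 0.11).

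Rpl23a was the 1 member with a positive log2 fold change in this comparison in excitatory neuron-like barcodes. It had 13.3 and 17.6 CPM in WT-PBS, 16.2 and 20.9 in 5×FAD-PBS, and 22.3 and 23.4 in the treated samples, a difference of 0.30 ± 0.20 (edgeR adjusted p = 0.421) that did not pass the test. Rpl5 had 34.3, 45.3, 49.8, 52.2, 46.6 and 43.7 CPM (-0.17 ± 0.16), and Rpl27 had 22.4, 25.7, 14.7, 23.5, 15.9 and 18.8 CPM (-0.14 ± 0.24). Both were within the range of the 4 PBS samples, although both treated values of Rpl5 were under both of 5×FAD-PBS.

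The stalk proteins, which recruit elongation factors to the ribosome, did not share 1 size. Rplp1 had 26.6 and 27.7 CPM in WT-PBS, 21.6 and 36.4 in 5×FAD-PBS, and 11.9 and 9.38 in the treated samples (-1.44 ± 0.27, edgeR adjusted p = 0.0922). Rplp2 had 22.2, 16.4, 12.8, 19.8, 10.4 and 8.68 CPM (-0.77 ± 0.26). Rplp0 had 10.7, 6.41, 4.03, 5.73, 3.48 and 3.60 CPM, and its difference was -0.84 ± 0.30 already between 5×FAD-PBS and WT-PBS and -0.46 ± 0.31 between treated and 5×FAD-PBS. None of these passed the threshold, and 0% of all genes did in this class in either comparison.

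**Figure D3:**
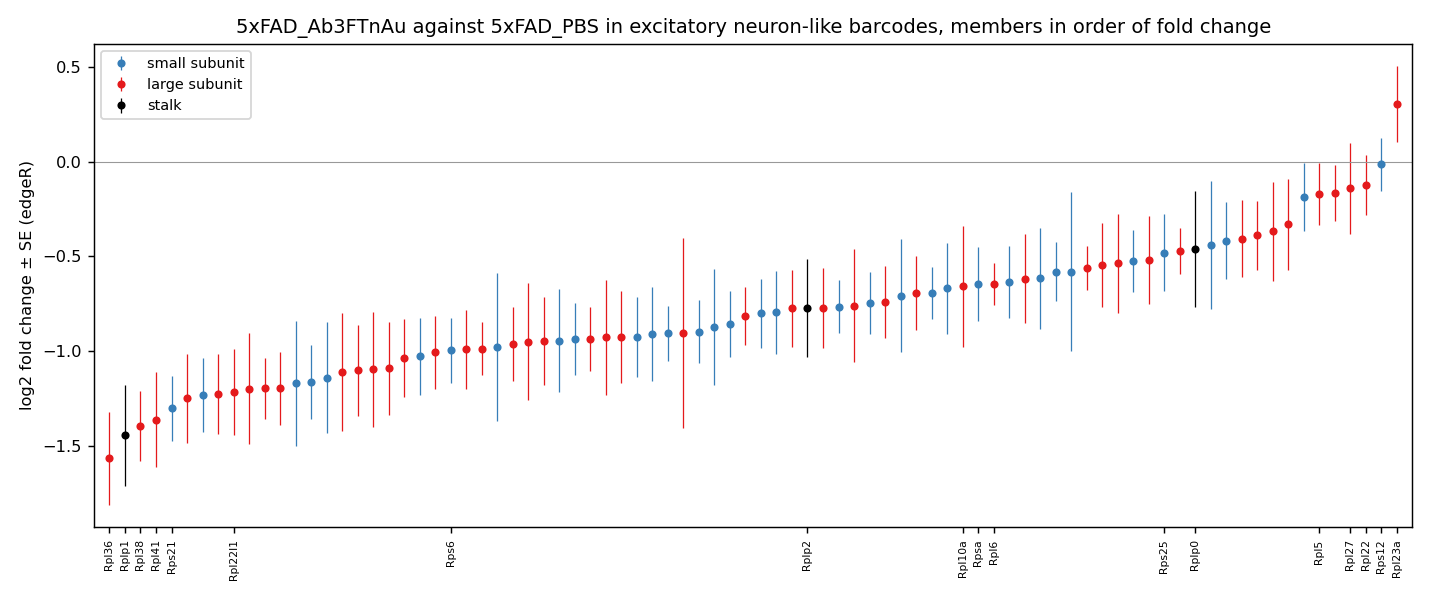
Log2 fold change of each of the 84 members tested in excitatory neuron-like barcodes, treated against 5xFAD_PBS (vertical axis, with the standard error from edgeR), in order of size along the horizontal axis, where some are named; blue marks small-subunit, red large-subunit and black stalk genes. All but Rpl23a, at 0.30, lie below 0, down to -1.57 for Rpl36.

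Among the paralog pairs given here, Rpl22 and Rpl22l1 lay farthest apart. Rpl22, an RNA-binding large-subunit protein, had 21.8 and 21.7 CPM in WT-PBS, 18.4 and 23.96 in 5×FAD-PBS, and 18.8 and 19.97 in the treated samples of excitatory neuron-like barcodes, a log2 difference of -0.12 ± 0.16. Its paralog Rpl22l1 had 30.2, 22.6, 19.8, 27.5, 11.1 and 9.16 CPM, a difference of -1.22 ± 0.23 (edgeR adjusted p = 0.0922). The treated samples overlapped 5×FAD-PBS for Rpl22 and not for Rpl22l1; the difference between the paralogs was not tested. Rpl7 and Rpl7l1 were both near level, at -0.37 ± 0.26 and -0.16 ± 0.15. Rps27 and Rps27l stood at -0.94 ± 0.27 and -0.71 ± 0.30, and Rpl36a and Rpl36al at -1.10 ± 0.24 and -1.11 ± 0.31. Rpl3 stood at -1.20 ± 0.29, and the muscle paralog Rpl3l, with 0.166 to 0.579 CPM, at -0.91 ± 0.50. Rpl39, Rpl10 and Rps4x were at -0.99 ± 0.21, -1.20 ± 0.19 and -0.67 ± 0.24, while their paralogs were too low to test or not analysed here.

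The members were also described by gene length and start-site run, without a test. In excitatory neuron-like barcodes members with gene spans up to the median of 3328.5 bp had a median log2 fold change of -0.93 against 5×FAD-PBS, and longer ones -0.72. The 29 members with a C/T run of at least 8 had a median of -0.77, the 35 with a shorter run -0.86 and the 20 without a RefSeq start -0.91. The order was not the same in oligodendrocyte-like barcodes, where the medians were -0.82, -0.49 and -0.67. Rps6 and Rpl38, whose runs are shown above, and Rpl41, whose window has none, were at -0.997, -1.40 and -1.36.

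In the other classes the treated samples again lay below 5×FAD-PBS for most members. Below 0 were 73 of 78 members in inhibitory neuron-like barcodes (50% of all genes), 73 of 79 in oligodendrocyte-like (49.9%), 32 of 36 in precursor-like (49%), 5 of 6 in astrocyte-like (50.4%) and 47 of 50 in microglia-like barcodes (50.4%). The medians were -0.94, -0.59, -0.68, -1.29 and -0.85, while those of all genes lay within 0.02 of 0. Both treated samples were below both 5×FAD-PBS samples for 59 of 78 members (27.1% of all genes), 47 of 79 (19.4%), 16 of 36 (19%), 4 of 6 (18.7%) and 32 of 50 (21.9%) in the same class order. Of the members tested in 3 or more classes, 62 of 78 were below 0 in every class where they were tested. Members with no UMI were 32 and 14 of 86 in the treated microglia-like barcodes and 2 to 7 in the PBS samples. These counts depend on depth: the treated samples held 39820 and 92873 UMIs in this class and the PBS samples 76832 to 623480. Rpl35a had no UMI in treated microglia-like barcodes against 25 and 50 UMIs in 5×FAD-PBS, at least 3.17-fold lower with a floor of 3 UMIs over the group. Rplp1 had 72.9, 143, 103.8, 172, 25.1 and 53.8 CPM in microglia-like barcodes, a difference of -1.70 ± 0.61 from 5×FAD-PBS (edgeR adjusted p = 0.424). Rpl41 had 89.4, 39.0, 75.9, 76.99, 126 and 53.8 CPM and Rpl10a 72.9, 104, 127, 120.3, 201 and 75.4 CPM there. For both genes treated sample 1 was the highest of all, and treated sample 2 was under both 5×FAD-PBS samples and within the WT-PBS range. With 39820 UMIs in this class, single-gene values of treated sample 1 rest on few UMIs.

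Rpl13, a large-subunit protein, was the 1 member that passed the test between treated and 5×FAD-PBS samples, in inhibitory neuron-like barcodes. It had 61.7 and 42.0 CPM in WT-PBS, 70.0 and 67.6 in 5×FAD-PBS, and 21.6 and 24.4 in the treated samples. It fell by 1.54 ± 0.28 on the log2 scale (edgeR adjusted p = 0.0379), where 0.499% of all genes were called lower. The call was lost without either 5×FAD-PBS sample (adjusted p = 0.288 and 0.522 by edgeR), without either treated sample (0.408 and 0.336), in DESeq2 (0.0825) and in barcodes with no mt- UMI (edgeR adjusted p = 0.491, log2 fold change -1.85). At an unadjusted p under 0.05, 44 of 78 members were lower in this class (7.63% of all genes), 28 of 79 in oligodendrocyte-like (4.92%), 5 of 36 in precursor-like (4.1%), 2 of 6 in astrocyte-like (4.38%) and 13 of 50 in microglia-like barcodes (7.06%). After adjustment the shares of all genes called lower in those 4 classes were 0.128%, 0.0328%, 0.035% and 0%, and no member was called. Higher calls took 0.0978% of all genes in inhibitory neuron-like, 0.0107% in oligodendrocyte-like, 0.0492% in precursor-like and 0% in astrocyte-like and microglia-like barcodes, with no member among them.

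Against WT-PBS, 37 of 333 combinations of member and class fell in the treated samples and none rose. The shares of all genes called higher were 0% in excitatory, 4.53% in inhibitory, 2.51% in oligodendrocyte, 0.836% in precursor, 0.105% in astrocyte and 0.0191% in microglia-like barcodes. In inhibitory neuron-like barcodes 22 of 78 members fell (4.42% of all genes), with 14 of 45 large-subunit, 8 of 31 small-subunit and 0 of 2 stalk members. Rpl28 had 24.4 and 17.98 CPM in WT-PBS, 19.7 and 31.1 in 5×FAD-PBS, and 4.62 and 6.32 in the treated samples. It fell by 1.94 ± 0.45 (edgeR adjusted p = 0.021), the largest of the 22. Rpl36 fell by 1.83 ± 0.45 and Rpl29 by 1.76 ± 0.46, with edgeR adjusted p = 0.0276 and 0.0349.

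Rpl41 had 62.5, 48.0, 41.6, 39.2, 13.1 and 19.0 CPM in inhibitory neuron-like barcodes and the smallest p among the members, falling by 1.78 ± 0.29 (edgeR adjusted p = 0.00756). Rps21, with 47.2, 28.5, 39.4, 24.3, 8.47 and 14.5 CPM, fell by 1.75 ± 0.39 (edgeR adjusted p = 0.0182). Rpl10a fell by 1.59 ± 0.43 (edgeR adjusted p = 0.04). Rps6, Rps25, Rps29, Rpl38, Rpsa, Rplp1 and Rplp2 were at -0.86, -0.51, -0.98, -1.11, -1.23, -0.74 and -0.99 and did not pass. The 22 calls became 0 without either treated sample, 8 without either 5×FAD-PBS sample, and 7 and 44 without WT-PBS samples 1 and 2, while the median of the members stayed between -1.06 and -0.89. Other settings gave 1 in DESeq2, 9 with the replicate number as a block, 6 in barcodes with no mt- UMI and 31 with the mt- share as a covariate. The share of all genes called in these settings, or with a sample left out, is not given here. Changes in these counts therefore cannot be read as particular to the family.

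In oligodendrocyte-like barcodes 14 of 79 members fell against WT-PBS (4.57% of all genes). Rpl29 had 26.6 and 17.8 CPM in WT-PBS, 16.5 and 13.9 in 5×FAD-PBS, and 2.94 and 6.26 in the treated samples, and fell by 2.09 ± 0.59 (edgeR adjusted p = 0.0441). Rpl37 had 37.5, 36.9, 31.7, 38.1, 8.82 and 9.39 CPM and fell by 1.97 ± 0.44 (edgeR adjusted p = 0.0122). Rpl37 was level between the PBS groups, whereas Rps2, with 93.4, 49.6, 43.1, 45.9, 20.6 and 23.5 CPM, was highest in WT-PBS sample 1; it fell by 1.66 ± 0.37 (edgeR adjusted p = 0.0119). Rpl18 and Rpl28 fell by 1.68 ± 0.44 and 1.57 ± 0.42, Rpl41 by 1.38 ± 0.35 and the stalk gene Rplp2 by 1.47 ± 0.38, with edgeR adjusted p = 0.0309, 0.0341, 0.024 and 0.0297. For the other settings that follow, the share of all genes called is not given here. The calls became 0 without either treated sample, 8 and 7 without 5×FAD-PBS samples 1 and 2, 28 without WT-PBS sample 2, 0 in DESeq2 and 4 in barcodes with no mt- UMI.

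Other members of oligodendrocyte-like barcodes did not have the treated samples lowest. Rpl10a had 51.3 and 15.3 CPM in WT-PBS, 19.0 and 14.7 in 5×FAD-PBS, and 32.3 and 26.6 in the treated samples, a log2 difference of 0.75 ± 0.52 from 5×FAD-PBS (edgeR adjusted p = 0.737). Rps29 had 25.6, 25.5, 35.5, 40.7, 44.1 and 21.9 CPM, with the treated samples at both ends. Rps25 had 41.2, 28.0, 12.7, 19.9, 23.5 and 18.8 CPM.

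In precursor-like barcodes Rpl13 was the 1 member of 36 that fell against WT-PBS (0.558% of all genes). It had 189 and 132 CPM in WT-PBS, 113 and 170 in 5×FAD-PBS, and 69.0 and 56.1 in the treated samples, a fall of 1.39 ± 0.30 (edgeR adjusted p = 0.0471). The call was lost without WT-PBS sample 1, without either 5×FAD-PBS sample and without either treated sample (edgeR adjusted p from 0.101 to 0.261). In excitatory neuron-like barcodes no member was called against WT-PBS (0% of all genes), with 66 of 84 at an unadjusted p under 0.05 in the lower direction against 17.3% of all genes and a smallest edgeR adjusted p of 0.0545. Astrocyte-like barcodes had 0 of 6 members called (0.14% of all genes) with 3 at an unadjusted p under 0.05 (7.07%), and microglia-like barcodes 0 of 50 (0%) with 5 (10.6%). DESeq2 over all 6 classes called 58 of 333, and the share of all genes it called is not given here.

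**Figure D4:**
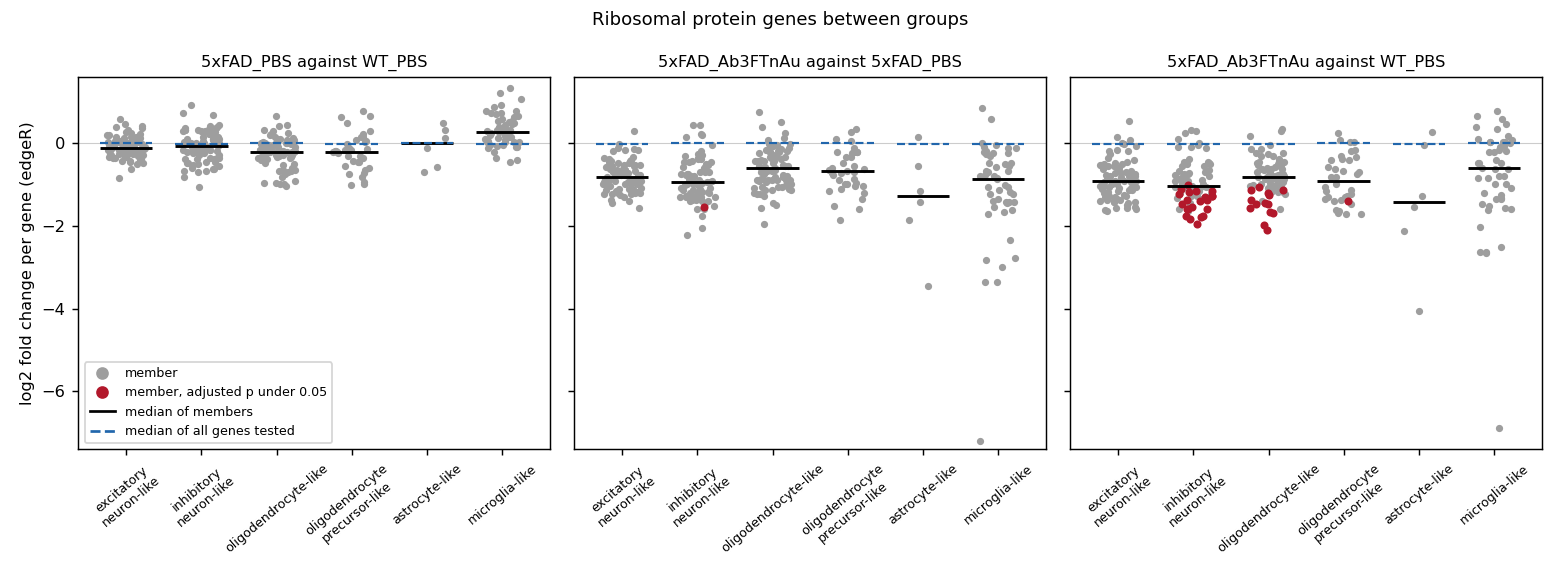
Log2 fold change of each member tested (points; red where the edgeR adjusted p was under 0.05) in the 6 classes for the 3 comparisons, with the median of the members as a black line and that of all genes tested as a dashed blue line. In the middle and right panels the black lines lie between -0.59 and -1.41, below the blue lines near 0; the left panel has no red point and its black lines lie between -0.20 and 0.27.

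Between 5×FAD-PBS and WT-PBS no member passed the threshold in any class. By class the share of all genes called lower was 0%, 0%, 3.95%, 0.0164%, 0% and 0.0765% in the order excitatory, inhibitory, oligodendrocyte, precursor, astrocyte and microglia. The share called higher was 0%, 0%, 0.866%, 0%, 0% and 0.746%. At an unadjusted p under 0.05 the members lower were 1 of 84 (3.06% of all genes), 2 of 78 (3.9%), 12 of 79 (10.5%), 2 of 36 (4.66%), 0 of 6 (4.06%) and 0 of 50 (4.92%) in that order. Those higher were 1 (3.3%), 2 (3.76%), 0 (7.04%), 0 (4.28%), 0 (4.38%) and 2 (5.93%). DESeq2 called none either. Without WT-PBS sample 2 edgeR did call members, most of them in excitatory neuron-like barcodes. The share of all genes called in that setting is not given here.

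Microglia-like barcodes went the other way from oligodendrocyte-like ones between these groups. In microglia-like barcodes 40 of 50 members were above 0 and 10 below (52.1% of all genes), their median was 0.27 against -0.03 for all genes, and both 5×FAD-PBS samples were above both WT-PBS samples for 17 of 50, or 34%, against 22.4%. Rps29 had 46.4 and 52.1 CPM in WT-PBS and 98.7 and 86.6 in 5×FAD-PBS (0.87 ± 0.40, edgeR adjusted p = 0.463). In oligodendrocyte-like barcodes 61 of 79 were below 0 (49.7% of all genes), with a median of -0.20 against 0.00, and both 5×FAD-PBS samples were below both WT-PBS samples for 31 of 79, or 39.2%, against 27.3%. Neuron markers moved too: their summed level was 2191 and 1268 CPM in WT-PBS oligodendrocyte-like barcodes against 682 and 463 in 5×FAD-PBS, and their part was not tested. The mt- share moved as well: it was 0.0405% and 0.214% in WT-PBS and 0.326% and 0.463% in 5×FAD-PBS in oligodendrocyte-like barcodes, and 0.0577% and 0.776% against 1.08% and 1.87% in astrocyte-like barcodes. In microglia-like barcodes it was 0.0590% and 0.272% against 0.344% and 0.304%. Neuron markers in microglia-like barcodes summed to 4368 and 1406 CPM in WT-PBS and 1337 and 2481 in 5×FAD-PBS. Among microglia-like barcodes of 1000 to 2000 UMIs the ribosomal protein level was 5925 and 4902 CPM in WT-PBS and 5265 and 6827 in 5×FAD-PBS, so the groups overlapped there.

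Classes differed in summed ribosomal protein level within each sample, and the size of that difference depended on the depth of the barcodes compared. Relative to excitatory neuron-like barcodes of the same sample, the level was 1.35-fold in inhibitory neuron-like, 1.54 in precursor-like, 1.70 in astrocyte-like, 1.83 in oligodendrocyte-like and 2.63 in microglia-like barcodes, above 1 in 6 of 6 samples each (exact sign-flip permutation p = 0.0312, the smallest possible, and 0.0312 after adjustment over 5 pairs). Oligodendrocyte-like and microglia-like barcodes had medians of 0.264 to 0.330 and 0.251 to 0.315 of their sample's median UMIs. With each barcode thinned to 1000 UMIs the ratios were 1.37, 1.41, 1.49, 1.68 and 2.58 in the same class order, above 1 in 6 of 6 samples each (exact permutation p = 0.0312). Thinning draws from a barcode's own UMIs and keeps its expected ribosomal protein share. It gives barcodes equal weight and cannot remove the dependence of that share on depth. Among barcodes of 1000 to 2000 UMIs the ratios were 1.11 in inhibitory (3 samples), 0.944 in oligodendrocyte, 0.905 in precursor, 0.870 in astrocyte and 1.47 in microglia-like barcodes. Only the microglia-like ratio was above 1 in 6 of 6 samples (exact permutation p = 0.0312, adjusted 0.156). That depth range was chosen after seeing the data.

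**Figure D5:**
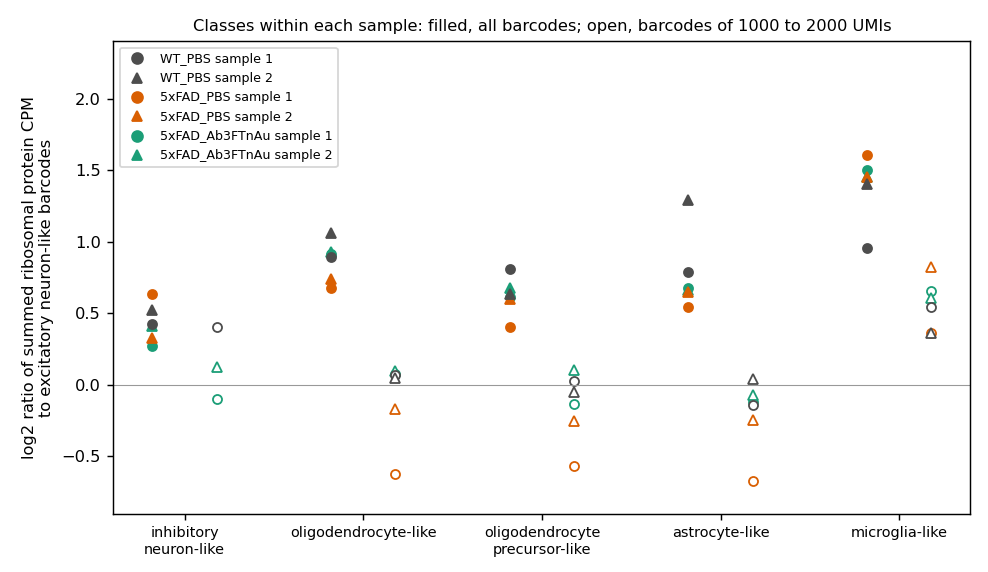
Log2 ratio of summed ribosomal protein CPM to that of excitatory neuron-like barcodes of the same sample (vertical axis) for the 5 other classes, 1 point per sample, coloured by group; filled points take all barcodes and open points those of 1000 to 2000 UMIs. Filled points are all above 0, while open points scatter around 0 except in microglia-like barcodes, where their mean ratio is 1.47-fold.

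Members did not all follow the family between classes. With sample as a block, 64 of 79 members were higher in microglia-like than in excitatory neuron-like barcodes (23.9% of all genes) and 0 lower (36.9%). Rpl10a was 2.08 ± 0.21 higher on the log2 scale (edgeR adjusted p = 2.44e-11), Rplp0 1.98 ± 0.30, Rps9 1.86 ± 0.17 and Rps29 1.79 ± 0.19, above a member median of 0.89. Rps27 was at -0.28 ± 0.21, Rpl23a at 0.05 ± 0.26, Rpl26 at 0.10 ± 0.21, Rpl15 at 0.11 ± 0.21 and Rpl6 at 0.14 ± 0.14. At 1000 to 2000 UMIs 13 of 31 members were higher in microglia-like barcodes (32.5% of all genes) and 1 lower (35.4%). There Rpl10a was 1.61 ± 0.30 higher (edgeR adjusted p = 1.59e-06), Rps9 1.47 ± 0.30 higher (1.45e-05), and Rps27 0.71 ± 0.32 lower (edgeR adjusted p = 0.046).

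Oligodendrocyte-like barcodes had 64 of 79 members higher (32.9%) and only Rpl6 lower (36.4%), by 0.31 ± 0.12 (edgeR adjusted p = 0.0253). Rplp0 and Rplp1 lay farthest above the median of 0.83, at 1.51 ± 0.23 and 1.49 ± 0.15, then Rps10 and Rpl18 at 1.32 and Rpl7 at 1.31. Lowest after Rpl6 were Rpl7l1, Rpl31, Rpl15 and Rpl22 at -0.18, -0.15, 0.08 and 0.09. At 1000 to 2000 UMIs 2 of 31 were higher (32.7% of all genes), Rplp1 at 0.57 ± 0.22 and Rpl27 at 0.65 ± 0.26, and Rpl6 was lower by 0.70 ± 0.18 (32.5% of all genes; edgeR adjusted p = 0.000635). Precursor-like barcodes had 36 higher (23.6%) and 1 lower (29.7%), with Rpl13 1.77 ± 0.12 higher (edgeR adjusted p = 4.36e-16) and Rpl26 0.73 ± 0.23 lower (edgeR adjusted p = 0.00629). Next above were Rpl32 at 0.91 and Rps24, Rps26 and Rplp1 at 0.88, and next below Rpl4, Rpl22, Rpl15 and Rpl23a at -0.28, -0.25, -0.16 and -0.12. Rpl13 was the 1 member of 31 higher there at 1000 to 2000 UMIs (20.8% of all genes; 0 lower, 22.5%), by 1.02 ± 0.22 (edgeR adjusted p = 4.95e-05). Rpl13 therefore stood apart from the family in precursor-like barcodes at either depth.

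Astrocyte-like barcodes had 46 of 79 members higher (24.7%) and 0 lower (29.8%), led by Rplp1 at 1.58 ± 0.21, Rps24 at 1.36 ± 0.24, Rpl37 at 1.35, Rpl34 at 1.31 and Rpl13 at 1.25. Rpl6, Rpl7l1, Rpl26, Rpl23a and Rps27 were lowest, at -0.35, -0.27, -0.27, -0.19 and -0.15. Inhibitory neuron-like barcodes had 29 higher (18.8%) and 0 lower (24.3%), led by Rpl11, a regulator of Mdm2, at 0.84 ± 0.16, then Rpl32 and Rpl36al at 0.82, Rpl23 at 0.80 and Rplp2 at 0.70. Lowest were Rpl26 at -0.39 ± 0.17, Rpl6 at -0.21 ± 0.12, Rps28 and Rpl15 at -0.12 and Rpl10a at -0.10. At 1000 to 2000 UMIs no member was called in either class by edgeR in either direction, where the share of all genes called higher was 25.4% in astrocyte-like and 3.56% in inhibitory neuron-like barcodes and lower 27.6% and 7.84%. Rpl6 was among the 5 members lowest relative to the family median in 4 of the 5 classes at full depth.

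The other translation genes are given for treated against 5×FAD-PBS excitatory neuron-like barcodes, where the members had 0.598 of the 5×FAD-PBS level. Ribosomal proteins and TOP mRNAs outside the name rule had 0.776 of the 5×FAD-PBS level, a median log2 fold change of -0.32 over 28 genes. Of these, 11 were lower at an unadjusted p under 0.05 in edgeR, against 11.2% of all genes. Among them Fau, which encodes the small-subunit protein eS30 fused to a ubiquitin-like protein, had 25.3, 19.2, 16.4, 21.8, 8.53 and 7.80 CPM (-1.22 ± 0.20), and Rack1, a scaffold of the small subunit, 16.8, 9.89, 10.1, 12.8, 7.37 and 7.13 CPM (-0.65 ± 0.27). Neither passed the threshold in this class, where 0% of all genes did. Against WT-PBS Fau fell by 1.81 ± 0.35 in inhibitory neuron-like barcodes (edgeR adjusted p = 0.0117).

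Lists without ribosomal proteins stayed near level or moved in part. Translation initiation factors were at 0.956 (median -0.06 over 27 genes), mTORC1 and TOP regulators at 0.988 (-0.01 over 24) and ribosome biogenesis genes at 0.983 (-0.02 over 30) of 5×FAD-PBS. Nuclear-encoded respiratory chain genes were at 0.737 (-0.54 over 88), mitochondrial ribosomal proteins at 0.806 (-0.42 over 78) and abundant short cytosolic mRNAs such as Ubb, Fth1 and Actb at 0.767 (-0.36 over 30). Nuclear long noncoding RNAs, a list dominated by a few very abundant transcripts, were at 0.684 in sum but 0.01 in median over 14 genes, so sum and median differ in sign. No member of these lists passed the threshold in this class, where 0% of all genes did, so the lack of calls is not particular to the lists. The lists were not tested as sets.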

How the data were processed

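UMI counts per gene and barcode were used as deposited. The authors made these counts with Cell Ranger on mm10 and used Seurat 4.3.0.1, per the submitters' processing notes, and the file headers name cellranger 7.1.0. For intronic reads, counting or leaving out is not stated by those sources. Start sequences are from RefSeq, GRCm38.p6. Gene spans were matched for all 86 members, also those without a RefSeq start. Starts and spans can differ: the Rpl22 window shown lies before the Rpl22 gene span, chr4:152325742-152334071. Barcodes needed 500 genes, 1000 UMIs and at most 15% mt- UMIs. The highest Scrublet scores (scanpy 1.11.5), 0.8% per 1000 barcodes, were removed as doublets. Classes came from marker UMIs per 10000, with limits set after the distributions were seen. The members and lists were chosen with earlier results of these data known.

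Counts were summed per sample and class (at least 10 barcodes). For each class all 6 samples entered 1 edgeR 4.0.16 quasi-likelihood model (TMM scaling, filterByExpr, Benjamini-Hochberg adjustment over all genes, threshold 0.05, 3 residual degrees of freedom), and classes were compared with sample as a block. The procedure was tested on simulated data for treated against 5×FAD-PBS. A 2-fold change was called for 22% of the changed genes in excitatory, 24% in inhibitory and 26% in oligodendrocyte-like barcodes. It was called for 22% in precursor-like, 8% in astrocyte-like and 1% in microglia-like barcodes. A 4-fold change was called for 46% to 72%. A member without a call can therefore still differ by 2-fold. Summed levels were compared by exact permutation. Alternatives were DESeq2 1.42.0, other scalings and filters, mt- strata and each sample left out.

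Named genes were the stalk proteins, Rpsa, Rpl41, Rps6, Rps29, Rps27, Rpl10a, Rpl38, Rps25, Rack1 and the paralog pairs. To these were added up to 5 members with the largest change in each direction among those past the threshold without overlap of samples, and between classes the 5 members farthest above and below the member median. Other genes named were picked after their values were seen. Values of some single genes are not reported here.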

Additional observations from a re-analysis of the deposited data

Results flagged for a closer look

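Between 5×FAD-PBS and WT-PBS the summed ribosomal protein level moved in opposite directions in different classes. The log2 ratio was 0.30 in microglia-like barcodes, where both 5×FAD-PBS samples lay above both WT-PBS samples. It was -0.32 in oligodendrocyte-like and -0.49 in astrocyte-like barcodes, where both lay below. The difference between classes was not tested. Among microglia-like barcodes of 1000 to 2000 UMIs the groups overlapped, at 5925 and 4902 CPM in WT-PBS and 5265 and 6827 in 5×FAD-PBS.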

How the results depend on the processing

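Both treated samples had the lowest summed level in each class with the settings of the report, and in excitatory neuron-like barcodes the member median stayed below 0 against 5×FAD-PBS under each alternative run. Counts of calls did not hold, and the share of all genes called under each alternative is not given here. Calls between 5×FAD-PBS and WT-PBS, 0 over the 6 classes, became 1 without TMM factors, with any count and with a stricter class margin, and 0 to 38 with a sample left out. Between treated and 5×FAD-PBS the 1 call became 46 in DESeq2, 21 with any count, 14 with mt- share as a covariate, 2 with doublets kept or the strict cell filter, and 0 with a stricter margin, no mt- UMI, at least 1 mt- UMI or 1000 to 2000 UMIs, and 0 to 105 with a sample left out. Between treated and WT-PBS the 37 calls became 58 in DESeq2, 115 with any count, 109 with the mt- covariate, 10 with at least 1 mt- UMI, 24 with the strict filter, 9 with a stricter margin, 14 at 1000 to 2000 UMIs and 11 at 3000 or more, and 0 to 163 with a sample left out. The cause was not tested.

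With the replicate number as a block the calls in these 3 comparisons were 0, 0 and 23. Deviations of same-numbered samples were negatively correlated (-0.218, -0.157 and -0.176), so same-numbered samples did not deviate together. With 2 samples per group this cannot tell which samples, if any, were processed together.

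The 5×FAD-PBS over WT-PBS log2 ratio of the summed level changed sign in excitatory neuron-like barcodes at 1000 to 2000 UMIs (0.0148; -0.20 to 0.11 with a sample left out), in inhibitory ones with a stricter margin (0.0724) and at 3000 UMIs or more (0.0131; -0.13 to 0.0455 with a sample left out), and in precursor-like ones at 3000 or more (0.15).

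Log2 ratios to excitatory neuron-like barcodes without mt- UMIs no longer passed after adjustment, at 0.49 in inhibitory, 0.84 in oligodendrocyte, 0.64 in precursor, 0.69 in astrocyte and 1.53 in microglia-like barcodes, nor did microglia with at least 1 mt- UMI (1.30). At 1000 to 2000 UMIs they were 0.14, -0.0828, -0.14, -0.20 and 0.56. Calls higher than in excitatory neuron-like barcodes, 239 in all, became 102 without mt- UMIs, 16 at 1000 to 2000 UMIs and 197 to 262 with a sample left out. Members tested per class were 79 with all barcodes, 52 without mt- UMIs and 31 at 1000 to 2000 UMIs. The fall in these counts therefore also holds fewer tests. Without mt- UMIs the share of all genes called is not given here. The 2 lower calls became 0 without TMM factors and 0 to 2 with a sample left out. Rps24 in precursor-like barcodes turned to -0.29 at 1000 to 2000 UMIs. Inhibitory neuron-like barcodes of that depth could not be fitted between groups. Few barcodes limit astrocyte-like and microglia-like values.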

Other observations

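Barcodes rich in ribosomal protein UMIs were nearly absent from the treated samples. At least 1% of UMIs came from the 86 members in 119 of 17561 WT-PBS barcodes, 118 of 11988 5×FAD-PBS barcodes and 1 of 12107 treated barcodes. At least 5% was reached by 5, 4 and 0 barcodes, of which 5 were endothelial or mural-like, 1 ependymal-like and 3 unassigned. These are counts of barcodes pooled over samples and classes, and they were not tested across samples. The classes were unevenly caught: microglia-like barcodes were 140 and 54 in WT-PBS, 246 and 313 in 5×FAD-PBS, and 32 and 70 in the treated samples. The part of class numbers in these counts was not tested.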
